A study of Mus musculus with 6 samples.

Results

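The 10 genes described here belong to families of lipid carriers, best known for sterol, that act between membranes in the cytosol or at membrane contact sites, outside vesicles. They were chosen by name, with earlier results of these data known, and comprise 2 START domain genes (Stard3, Stard4), 6 oxysterol-binding protein genes (Osbp, Osbpl2, Osbpl5, Osbpl8, Osbpl9, Osbpl11) and 2 GRAMD1 (Aster) genes (Gramd1a, Gramd1b). All 10 were among the 17463 genes in the files. TER119-negative erythroblasts of E14.5 fetal liver from C57BL/6J mice (no engineered allele is named in the labels) were grown in medium with Epo, the hormone that drives red cell formation. They received 40 µM cholesterol or none for 30 h, and, per the study's methods, cells that had become positive for the red cell surface marker TER119 were sorted before RNA extraction. The 3 control samples are called untreated in the labels and vehicle-treated in the study's legends, and the 3 cholesterol samples carry the same replicate numbers, 1 to 3. The labels do not say whether the samples of a group came from separate embryos or cultures, and a legend shared by this RNA-seq and other assays speaks of independent experiments without tying them to these samples. P-values therefore measure only the spread between these samples, which may be technical. The comparison asks how the sterol carriers of maturing erythroblasts stood after cholesterol loading.

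Cholesterol is unevenly spread in the cell, low in the endoplasmic reticulum, where its synthesis is sensed, and high in the plasma membrane. START domain proteins hold a single lipid, in some of them a sterol, in a hydrophobic pocket. Oxysterol-binding protein relatives exchange a sterol or another lipid for a phosphoinositide between apposed membranes. Aster proteins sit in the endoplasmic reticulum and take up accessible cholesterol from the plasma membrane. When sterol in the endoplasmic reticulum runs low, the transcription factor SREBP2 is processed and turns on synthesis genes, and Stard4 is a known target of it. When oxysterols rise, the nuclear receptor LXR turns on export genes.

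The libraries were alike in depth, with total counts between 19826797 and 20061702, so that the floor of 3 counts lay at 0.15 CPM (reads of a gene scaled to a common library size) in every library to 2 decimals. CPM values were scaled by TMM, a normalization for library composition. The summed CPM of 10 erythroid markers lay between 72839 and 107142, with every marker detected in all 6 samples. Markers of other cells were far lower but differed between replicate numbers, and several were lower with cholesterol. The summed CPM of 11 macrophage markers was 30.6, 90.9 and 299 in control replicates 1, 2 and 3, and 21.2, 39.7 and 112 in the cholesterol replicates. The 10 neutrophil markers summed to 72.5, 269 and 728 CPM in the controls and to 43.98, 116 and 303 CPM with cholesterol. Both sums were lower with cholesterol in all 3 pairs, as were 9 of 11 macrophage and 8 of 10 neutrophil markers singly. Of the erythroid markers, 9 of 10 were too. So were 3 of 8 mast cell and basophil, 2 of 7 megakaryocyte, 2 of 5 endothelial, 1 of 6 B cell and 0 of 8 hepatocyte markers. Over all genes tested, 20% had that pattern. With the replicate number as a block, edgeR called 9 of 10 neutrophil markers lower and, of the 10 macrophage markers tested, 5 lower and 1 higher. Over all genes tested, that fit called 5.2% lower and 1.65% higher. The 8 mast cell and basophil markers summed to 1.77, 4.55 and 19.1 CPM in the controls and to 0.542, 1.33 and 3.06 CPM with cholesterol, and both of the 2 that could be tested were called lower with the block. Sums were lower in all 3 pairs for the erythroid, megakaryocyte and endothelial markers too, with 2 of 10 erythroid, 1 of 7 megakaryocyte and 0 of 2 tested endothelial markers called lower with the block, but not for hepatocyte or B cell markers. Sums of 6 B cell markers reached 4.57 CPM and those of 5 endothelial markers 5.81 CPM, and the mast cell gene Tpsb2 was at 0 in all 6 samples. Sums of 8 hepatocyte markers lay between 86.7 and 361 CPM, and those of 7 megakaryocyte markers between 78.1 and 96.2 CPM. In bulk RNA, fewer cells of a type and less RNA per cell cannot be told apart.

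The largest difference among the tested members was in Stard4, which was lower with cholesterol in every pair of same-numbered samples, at 61.7 CPM ± 7.53 (SD, n = 3) against 103 CPM ± 30.5 (SD, n = 3). Gramd1a was also lower in every pair. The rank of Stard4 by log2 fold change rested on single samples. Gramd1b exceeded it in size without control replicate 1 (-0.752 against -0.577) and without cholesterol replicate 3 (-0.822 against -0.645). The 5 genes of the oxysterol-binding protein family that could be tested had log2 fold changes near 0. No member passed the adjusted threshold of 0.05 in edgeR's quasi-likelihood test (Benjamini-Hochberg adjustment over 11277 genes). That test called 1 gene of all genes tested, or 0.00887%, and 0 of the 9 members tested, whose smallest adjusted p was 0.9998. At an unadjusted p under 0.05 it had 1 member, Stard4, where 2.63% of all genes lay. With the replicate number as a block, edgeR called 6.85% of all genes and again 0 of 9 members, with a smallest adjusted p of 0.0678 in Stard4, and 2 members, Stard4 and Gramd1a, had an unadjusted p under 0.05, against 19.6% of all genes. Neither DESeq2 without the block nor limma called a member. DESeq2 with the block called 1, Stard4, lower, where 2.16% of all genes were called lower. Osbpl5 was left out of these tests because its counts were too low.

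**Figure D1:**
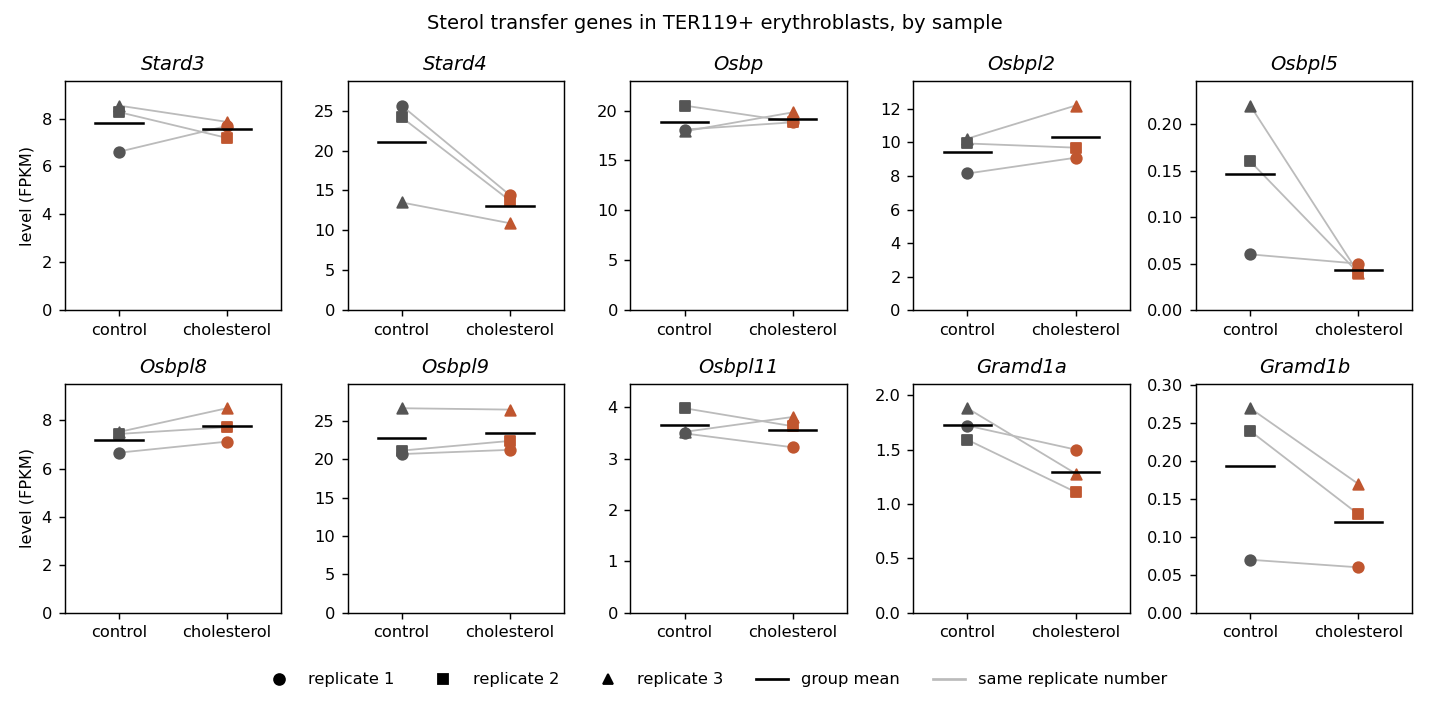
Level of each of the 10 sterol transfer genes in FPKM (y axes, each starting at 0 and with its own range) in the 3 control and 3 cholesterol samples, with grey lines joining samples of the same replicate number and bars at group means. Stard4 and Gramd1a were lower with cholesterol along all 3 lines, while Osbp and Osbpl9 lay almost level.

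Levels can be set against each other between genes in FPKM, which divides reads by transcript length. Osbpl9 had the highest mean level over the 6 samples, 23.1 FPKM, followed by Osbp with 19.0 FPKM and Stard4 with 17.1 FPKM. Osbpl2 (9.88 FPKM), Stard3 (7.69 FPKM) and Osbpl8 (7.50 FPKM) formed a middle group, and Osbpl11 (3.61 FPKM) and Gramd1a (1.51 FPKM) were lower. Gramd1b (0.157 FPKM) was very low, at 8 to 34 counts in a sample. Osbpl5 (0.095 FPKM), at 3 to 16 counts, was near the limit of detection. Osbp was above Stard4 in 4 of 6 samples and Stard3 above Osbpl8 in 3 of 6, so those neighbours could not be ordered beyond their spread. Stard4 was above Osbpl2 in 5 of 6 samples, and every other neighbouring pair kept its order in all 6.

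Of the START domain genes, Stard4 encodes a small soluble carrier of sterol in the cytosol. Its TMM-scaled level was 125.5, 116 and 68.5 CPM in control replicates 1, 2 and 3, and 67.6, 64.2 and 53.2 CPM in cholesterol replicates 1, 2 and 3. Control replicate 3 stood well below the other 2 controls and only just above cholesterol replicate 1, so the groups were separated by a narrow margin. In FPKM, which carries no TMM scaling, the controls were at 25.6, 24.2 and 13.5 and the cholesterol samples at 14.4, 13.7 and 10.9, and control replicate 3 fell among the cholesterol samples.

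The log2 fold change of Stard4 was -0.74 (SE 0.234, 95% interval -1.31 to -0.18), with an unadjusted p of 0.0178 in edgeR and an adjusted p of 0.9998. With the replicate block it was -0.72 (SE 0.125, 95% interval -1.07 to -0.36, edgeR adjusted p = 0.0678), just above the threshold. Within the pairs, the log2 ratio of cholesterol over control in CPM was -0.89, -0.85 and -0.37. Fits that kept the block differed on Stard4. DESeq2 with the block called it lower (log2 fold change -0.71, adjusted p = 7.46e-10), where 2.16% of all genes were called lower. With the block and no filter on low counts, a fit chosen after seeing the data, edgeR also called it lower (log2 fold change -0.71, adjusted p = 0.0139), where 5.02% of all genes were. With the block and robust estimation off, likewise chosen after seeing the data, it was called lower (log2 fold change -0.72, edgeR adjusted p = 0.000562). Block fits that left out a pair had 1 residual degree of freedom each. They called Stard4 lower without pair 1 (log2 fold change -0.62, edgeR adjusted p = 0.0175) and without pair 3 (log2 fold change -0.87). Without pair 2, the block fit did not call it (log2 fold change -0.64, edgeR adjusted p = 0.344). Over the alternatives that left out 1 sample, the log2 fold change of Stard4 without the block lay between -0.97, without control replicate 3, and -0.58, and none of them passed the threshold.

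Stard3 encodes a START protein of the late endosome membrane, which tethers it to the endoplasmic reticulum. It had 6.61, 8.27 and 8.54 FPKM in the controls and 7.69, 7.19 and 7.86 FPKM with cholesterol. The cholesterol samples lay inside the range of the controls, and the log2 fold change was -0.07 (95% interval -0.38 to 0.24, adjusted p = 0.9998 in edgeR). The sign differed between pairs, with 1 pair higher and 2 lower. The 2 START genes differ in coding length, with 446 codons in the longest annotated coding sequence of Stard3 against 224 in that of Stard4.

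Stard4 took 28.1%, 24.8% and 14.96% of the summed FPKM of the 10 genes in control replicates 1, 2 and 3, and 17.3%, 16.3% and 11.97% in the cholesterol replicates. The sum of the other 9 genes was 71.8 FPKM ± 5.74 (SD, n = 3) in the controls and 73.2 FPKM ± 6.08 (SD, n = 3) with cholesterol, a difference smaller than the SD. The ratio of Stard4 to Osbp in FPKM was 1.42, 1.18 and 0.753 in the controls and 0.767, 0.728 and 0.550 with cholesterol. Stard4 was thus above Osbp in control replicates 1 and 2 only.

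**Figure D2:**
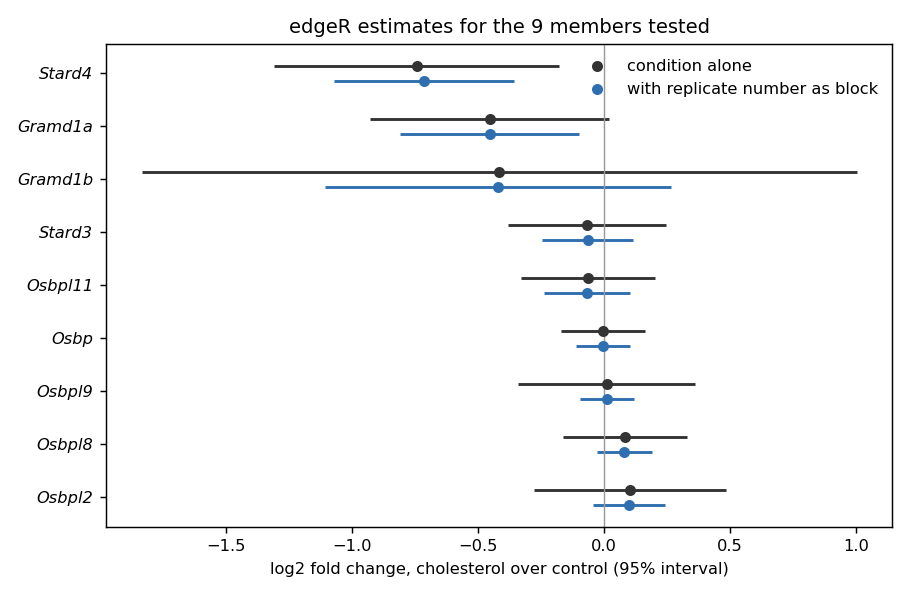
edgeR log2 fold change of cholesterol over control (x axis) for the 9 members tested (y axis), with points for the estimates and lines for 95% intervals, fitted with condition alone (black) and with replicate number as a block (blue). The intervals of Stard4 lay below 0 in both fits and those of Gramd1a only with the block, and neither gene passed the adjusted threshold in them.

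Of the 6 oxysterol-binding protein genes, all but the very low Osbpl5 could be tested, and the log2 fold changes of these 5 lay between -0.06 and 0.10. Their 95% intervals together spanned -0.34 to 0.48 without the block and -0.24 to 0.24 with it, so differences beyond those bounds lay outside the intervals. Osbp encodes the founding member, which exchanges sterol for phosphatidylinositol 4-phosphate between endoplasmic reticulum and Golgi. It had 18.1, 20.5 and 17.9 FPKM in the controls and 18.8, 18.9 and 19.8 FPKM with cholesterol. All cholesterol samples lay within the control range, and the log2 fold change was -0.01 (95% interval -0.17 to 0.16, and -0.11 to 0.10 with the block).

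Osbpl9, which encodes ORP9, a partner of the Golgi and endosomal protein ORP11, had 20.7, 21.1 and 26.6 FPKM in the controls and 21.2, 22.4 and 26.5 FPKM with cholesterol. The groups overlapped, and replicate 3 was the highest of each. The log2 fold change was 0.01 (95% interval -0.34 to 0.36), and the block narrowed that interval to between -0.10 and 0.12. Osbpl11, the gene of ORP11, had 3.49, 3.98 and 3.52 FPKM in the controls and 3.22, 3.63 and 3.81 FPKM with cholesterol, with overlapping groups and a log2 fold change of -0.06 (95% interval -0.33 to 0.20).

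Osbpl2 encodes ORP2, a carrier of cholesterol to the plasma membrane. Its level was 8.15, 9.94 and 10.2 FPKM in the controls and 9.09, 9.69 and 12.2 FPKM with cholesterol. The groups overlapped, replicate 3 was again the highest in each, and the log2 fold change was 0.10 (95% interval -0.28 to 0.48). Osbpl8 and Osbpl5 encode ORP8 and ORP5, which are anchored in the endoplasmic reticulum and exchange phosphatidylserine for a phosphoinositide at contacts with the plasma membrane. Osbpl8 had 6.66, 7.44 and 7.52 FPKM in the controls and 7.12, 7.72 and 8.51 FPKM with cholesterol. It was the 1 member higher in all 3 pairs, a pattern that 19.9% of all genes tested had, and its log2 fold change was 0.08 (95% interval -0.17 to 0.33).

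Osbpl5 was close to absent. It had 5.17, 12 and 16 expected counts in the controls and 4, 3.9 and 3 with cholesterol, or 0.261, 0.594 and 0.830 CPM against 0.197, 0.192 and 0.153 CPM. Every control was above every cholesterol sample, but control replicate 1 only by about 1 count. Summed over samples there were 33 rounded counts in the controls and 11 with cholesterol, a control-to-cholesterol ratio of 3.04 after scaling for depth (exact Clopper-Pearson 95% interval 1.501 to 6.68, counting error only). The ratio was 1.28 in pair 1 (0.276 to 6.46), 3.01 in pair 2 (0.912 to 12.8) and 5.42 in pair 3 (1.55 to 29.0). With no filter on low counts, the log2 fold change was -1.57 (SE 0.587, edgeR adjusted p = 0.9991) and, with the block, -1.52 (SE 0.618, edgeR adjusted p = 0.1326). In the controls, Osbpl5 was higher where the macrophage and neutrophil markers given above were higher, whereas the cholesterol samples did not follow them. Those marker sums were lower with cholesterol in all 3 pairs, as Osbpl5 was, and the part of such cells in the level was not tested.

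The Aster genes were both lower with cholesterol in all 3 pairs and were expressed at low levels. Gramd1a had 95, 87 and 104 counts in the controls and 81, 61 and 70 with cholesterol, which is 4.80, 4.31 and 5.395 CPM against 3.99, 3.01 and 3.58 CPM. All controls stood above all cholesterol samples, with control replicate 2 and cholesterol replicate 1 close together. The log2 fold change was -0.45 (SE 0.196, 95% interval -0.93 to 0.02, edgeR adjusted p = 0.9998), and -0.46 with the block (95% interval -0.81 to -0.10, edgeR adjusted p = 0.1214).

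Gramd1b had 0.556, 1.24 and 1.76 CPM in the controls and 0.394, 0.938 and 1.33 CPM with cholesterol. The spread between replicate numbers exceeded the difference between groups, and the groups overlapped. The mean log2 CPM of the same-numbered pairs ranged over 1.71, against a mean pair difference of -0.44. Within pairs the log2 ratio was nearly constant, at -0.50, -0.40 and -0.41, and the log2 fold change was -0.42 (SE 0.587, 95% interval -1.84 to 1.002; with the block edgeR adjusted p = 0.5345). Single libraries moved that value widely, to -0.02 without control replicate 3, -0.06 without cholesterol replicate 1, -0.75 without control replicate 1 and -0.82 without cholesterol replicate 3. The order of the 6 samples in Gramd1b was the order of their summed macrophage markers and also of their summed neutrophil markers, which were likewise lower with cholesterol in all 3 pairs, and the part of such cells in its level was not tested.

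**Figure D3:**
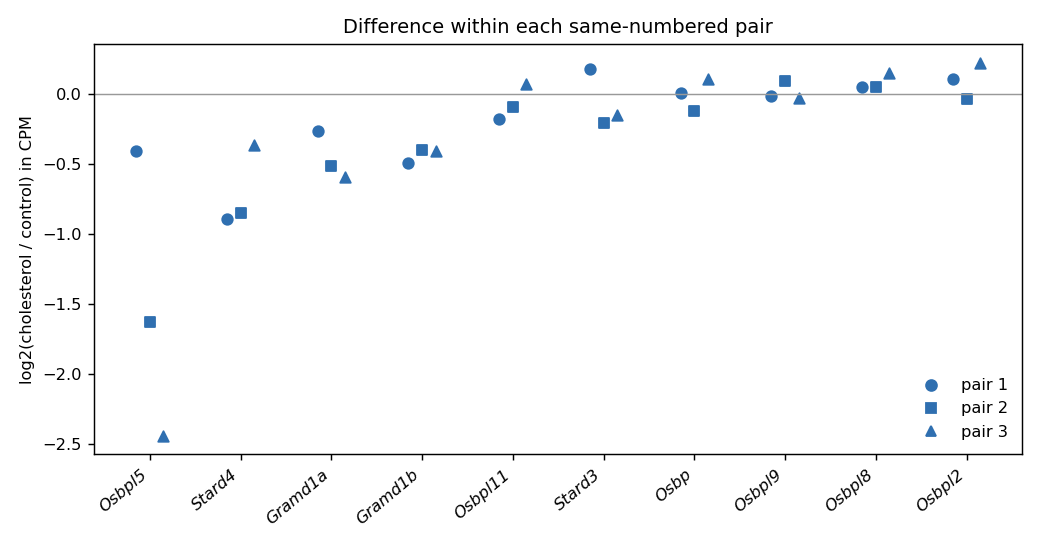
Log2 ratio of cholesterol over control in TMM-scaled CPM (y axis) within each same-numbered pair, for the 10 members (x axis, ordered by mean difference), with a symbol per pair. All 3 symbols lay below 0 for Osbpl5, Stard4, Gramd1a and Gramd1b, and all 3 above 0 for Osbpl8.

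Of the 10 members, 4 (Stard4, Osbpl5, Gramd1a, Gramd1b) were lower with cholesterol in all 3 pairs, where 20% of all genes tested were. The groups did not overlap in CPM for 3 of 10 (Stard4, Osbpl5, Gramd1a), where 7.98% of all genes tested did not, in either direction. Osbpl5 is counted among these members but was not one of the genes tested. Among the 9 tested, 6 were lower and 3 higher on average, with a median log2 fold change of -0.06 against 0.01 over all genes tested. That median ranged from -0.11 without cholesterol replicate 3 to 0.02 without cholesterol replicate 1, so its direction rested on single samples. In 7 of the 10, the range of the pair means exceeded the mean difference between the groups. Only Stard4, Osbpl5 and Gramd1a had a group difference larger than that range.

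Stard4 was set beside other genes under SREBP2. Of 20 listed SREBP2 targets, all tested, all 20 were lower on average with cholesterol (median log2 fold change -1.37), 0 were called by edgeR and 18 had an unadjusted p under 0.05. With the block, 8 of 20 were called lower, where 5.2% of all genes were, and DESeq2 without the block called 13 of 20 lower, where 0.228% of all genes were. The mean log2(CPM + 1) of the targets was 6.08, 5.72 and 4.95 in control replicates 1 to 3 and 4.38, 4.18 and 4.12 with cholesterol. As in Stard4 in CPM, control replicate 3 was the lowest control and stood above every cholesterol sample.

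Among the target genes with the smallest p under the block were Mvd, Dhcr7, Pmvk and Sc5d, which all encode enzymes of cholesterol synthesis. Mvd, the mevalonate diphosphate decarboxylase, had 15.2, 9.45 and 4.98 CPM in the controls and 2.41, 2.37 and 1.74 CPM with cholesterol, a log2 fold change of -2.18 (block adjusted p = 4.28e-06 in edgeR). Every control stood above every cholesterol sample, and control replicate 3 was again the lowest control. Pmvk, the phosphomevalonate kinase, had a log2 fold change of -0.69, the nearest of these 4 to that of Stard4, and Dhcr7 and Sc5d had log2 fold changes of -1.86 and -1.40.

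Likeness to Stard4 was measured as the root mean square distance of centred log2(CPM + 1) over the 6 samples, among 10413 genes with a mean of at least 1 CPM. The nearest were Pank3 (0.0526), Nsdhl (0.0821), Slc25a1 (0.0887), Rdh11 (0.0930) and Acat2 (0.103), where the median over all candidates was 0.467. Of these 5, 1 was among the 20 listed targets, Nsdhl, a sterol synthesis enzyme. Of the others, Acat2 makes acetoacetyl-CoA, Pank3 starts coenzyme A synthesis and Slc25a1 exports citrate from mitochondria. For Gramd1b, the nearest were Pxylp1, Ift80, Kctd14, Mob3c and A630001G21Rik, at distances from 0.0621 to 0.0786, where the median over all candidates was 0.376. At about 1 CPM, adding 1 compresses the differences of Gramd1b.

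**Figure D4:**
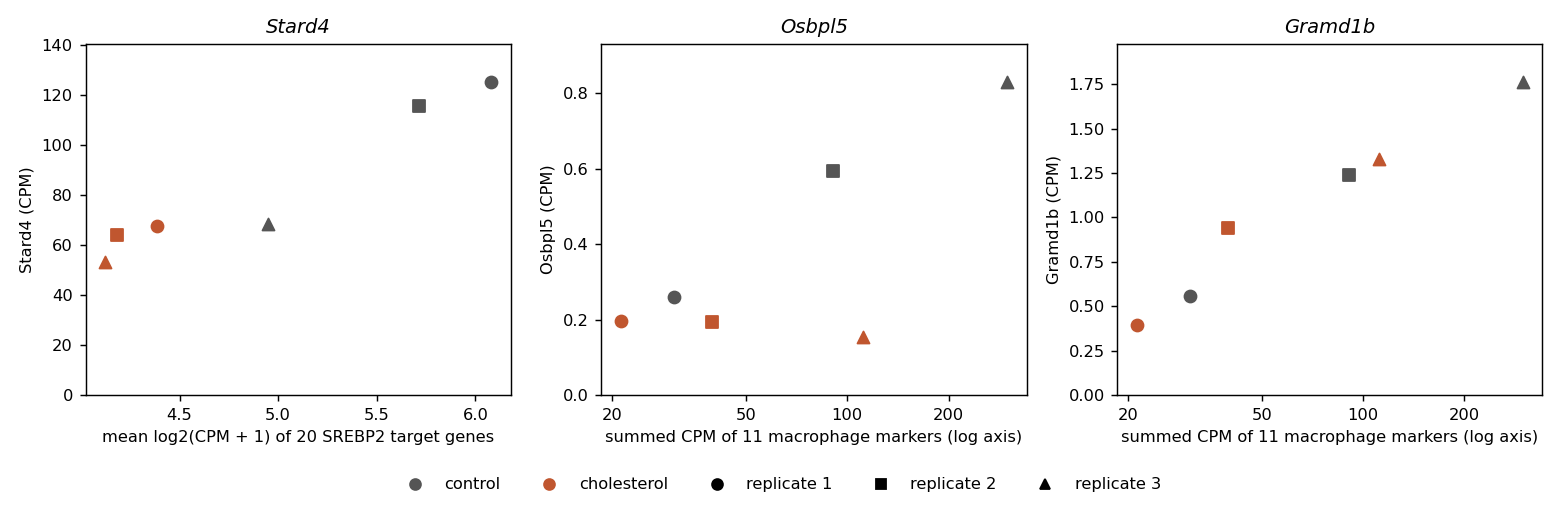
CPM of Stard4 (left, y axis) against the mean log2(CPM + 1) of 20 SREBP2 target genes (x axis), and CPM of Osbpl5 (middle) and Gramd1b (right) against the summed CPM of 11 macrophage markers (x axes, log scale), with one point per sample, grey for control and orange for cholesterol and a symbol per replicate number. Control replicate 3 lay near the cholesterol samples in Stard4, and the Gramd1b points lay in the order of the marker sum in both groups.

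Among LXR targets, of 13 listed, 12 were in the files and 10 tested, and edgeR called 1, Abcg1, which was the 1 gene called over all genes. This sterol exporter had 6.92, 4.36 and 6.38 CPM in the controls and 101, 93.8 and 98.9 CPM with cholesterol, with a log2 fold change of 4.05 (SE 0.177, edgeR adjusted p = 0.002919). With the block, where 1.65% of all genes were called higher, 4 were higher: Abcg1, Mylip, Lpcat3 and Abca1. The median log2 fold change of the 10 was 0.33.

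Relatives of the members outside the 10 were examined too. Of 23 listed START, oxysterol-binding protein and GRAM domain genes, 22 were in the files and 15 tested, and edgeR called 0 without the block, with 1 at an unadjusted p under 0.05, while DESeq2 called 0 and the block called 1, higher, a share of 15 close to the 6.85% of all genes called with the block. That gene, Osbpl7, encodes another protein of the oxysterol-binding family and was higher with cholesterol in all 3 pairs. It had 11.2, 9.65 and 9.08 CPM in the controls and 14.6, 13.9 and 12.7 CPM with cholesterol. The groups did not overlap, and the log2 fold change was 0.46 (SE 0.123, edgeR adjusted p = 0.9998, and 0.00369 with the block). The median log2 fold change of the 15 was -0.03.

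Of 29 genes that act with these carriers at contact sites, such as the anchors Vapa and Vapb and the phosphoinositide enzymes Sacm1l, Pi4ka and Pi4kb, all 29 were tested and edgeR called 0, with 2 at an unadjusted p under 0.05. With the block 2 of 29 were called, both lower, a share close to the 6.85% of all genes called, and DESeq2 without the block called 1. Npc2, which hands cholesterol out of the late endosome lumen, had 47.7, 39.8 and 54.4 CPM in the controls and 30.3, 27.9 and 31.1 CPM with cholesterol, and all controls stood above all cholesterol samples. Its log2 fold change was -0.67 (SE 0.125, edgeR adjusted p = 0.9998, 2.04e-06 with the block and 0.00509 in DESeq2). Mospd2, an anchor of the endoplasmic reticulum with a motile sperm protein domain, had 13.99, 14.7 and 11.1 CPM in the controls and 8.87, 9.63 and 7.97 CPM with cholesterol. Its log2 fold change was -0.59 (SE 0.150, edgeR adjusted p = 0.9998, and 7.03e-04 with the block). The median log2 fold change of the 29 was -0.04. Npc1, the membrane partner of Npc2, had a log2 fold change of -0.04, and Npc1, Vapa and Vapb passed no threshold in either edgeR fit.

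The windows upstream of the members' start sites differed in sequence features. RefSeq windows (build GRCm38.p6) from 250 bases before to 50 after a start site were matched for 8 of the 10 members, all but Stard4 and Gramd1b. They were searched on both strands for the sterol response element letters TCACNCCAC, the E-box CACGTG and the CCAAT box, and these motifs were chosen after values had been seen. The first was in 1 of 8 members (Stard3) and 1.44% of 27025 genes, the E-box in 2 of 8 (Osbpl5, Osbpl8) and 8.09% of genes, and the CCAAT box in 7 of 8 and 41.1% of genes. Among the 9032 tested genes with a window, the shares were 1.42%, 12% and 43.8%, in the same order. Among the SREBP2 targets, 13 had a window, of which 1, Hmgcs1, held the first motif, 3 held the E-box and 13 the CCAAT box. A match is a description of letters and not of binding.

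Upstream sequence is printed for Stard3, the member with the sterol response element letters, and for Osbp, a member with 5 CCAAT boxes. Osbpl9 also had 5 matches, but that at position 42 lay after the start site, and those at -41 and -38 overlapped. Neither Stard3 nor Osbp passed a test. Capitals mark the motif letters, read on either strand, so that ATTGG is a CCAAT box on the opposite strand, and the other letters are lower case. Both genes lie on the plus strand, Stard3 at chr11:98358367-98381112 and Osbp at chr19:11965844-11994114, and the printed bases are the 250 before the start site of the window, at chr11:98358118-98358367 and chr19:11965594-11965843 in GRCm38.p6.
Stard3: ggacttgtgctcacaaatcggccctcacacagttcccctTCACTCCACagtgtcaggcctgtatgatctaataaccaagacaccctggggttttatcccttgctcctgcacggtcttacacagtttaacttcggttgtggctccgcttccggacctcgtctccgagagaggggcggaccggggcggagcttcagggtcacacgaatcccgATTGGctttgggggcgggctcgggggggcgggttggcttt
Osbp: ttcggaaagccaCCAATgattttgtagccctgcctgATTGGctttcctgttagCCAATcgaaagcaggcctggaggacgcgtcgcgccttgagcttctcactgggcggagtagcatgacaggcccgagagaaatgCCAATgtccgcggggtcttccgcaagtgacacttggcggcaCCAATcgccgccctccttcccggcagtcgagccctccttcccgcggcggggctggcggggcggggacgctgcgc

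Counting bases upstream of the start site, the sterol response element letters of Stard3 began at position -211 and its CCAAT box at -40. The CCAAT boxes of Osbp began at -238, -214, -197, -115 and -74. The other members with a CCAAT box were Osbpl2, Osbpl5, Osbpl9, Osbpl11 and Gramd1a, and Osbpl8 held none in its window.

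Annotation may bear on how firmly some members were counted. The libraries do not mark strand, and the span of Osbpl9 overlaps that of Nrd1, a coding gene on the opposite strand. The span of Gramd1a overlaps 2 antisense genes, and that of Gramd1b 6 noncoding genes, 3 of them on the opposite strand. Only whole gene spans were compared. Whether exons overlap was not examined, so it is not known whether reads were shared. Osbpl8 and Osbpl9 had expected counts that were not whole in all 6 samples, as estimated counts are where reads fit more than 1 gene, and their values are uncertain to that extent. The largest distance of a count from a whole number was 0.50 in Osbpl8 and 0.42 in Osbpl9.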

How the data were processed

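Oligo(dT)-selected RNA of 3 control and 3 cholesterol samples was sequenced in single-end reads. The authors deposited expected counts per gene, estimates that need not be whole (27.9% to 29.5% of values were not), and a second table whose unit is not named. The deposited values of that table were taken as FPKM, since with counts and totals they imply lengths near those of annotated transcripts. The submitters' processing notes list HISAT2 2.0.4, Bowtie2 2.2.5, RSEM 1.2.12, DESeq2 1.4.5 and build GRCm38.p6. Strand was not marked. Whole counts had been assumed in the planned tests, and values were therefore rounded.

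Counts were tested in edgeR 4.0.16 (R 4.3.3; filterByExpr with at least 10 counts in enough samples and 15 in total, TMM, robust quasi-likelihood test, Benjamini-Hochberg adjustment over 11277 genes), with condition alone. SEs were derived from the F statistic. Alternatives were a replicate block, DESeq2 1.42.0, limma 3.58.1 on log2(FPKM + 1) or log2(FPKM + 0.1), other filters and scalings, and leaving out samples. The code was tested on simulated data. Groups of 3 allow an exact permutation test of 1 gene no p below 0.1, so none is printed. Replicate numbers come from the sample labels, which do not say what they stand for. With group means removed, samples sharing a number correlated at 0.789, 0.481 and 0.855 across genes. Of the differently numbered samples, control 1 with cholesterol 2 (0.443) and control 2 with cholesterol 1 (0.269) also correlated, and the other 4 combinations were negative. The numbers were taken to pair the samples since all 3 same-numbered values exceeded 0.1. The positive values of differently numbered samples exceeded 0.1 too. This cut-off therefore cannot establish the pairing on which the block and pair results rest. No 2 libraries were copies.

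All 10 members were named. From each other list, up to 5 genes with the smallest block p among those past the threshold in either edgeR fit were named, and for Stard4 and Gramd1b the 5 nearest genes. A gene that this rule selects is not reported here. Vapa, Vapb, Sacm1l, Pi4ka, Pi4kb and Npc1 were named as examples after values had been seen. The members and lists were chosen with earlier results of these data known.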

Additional observations from a re-analysis of the deposited data

How the results depend on the processing

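The number of genes called was 1 with condition alone, 772 with the replicate block and 28 with DESeq2, and 280 with block and DESeq2, 1197 with block and no filter, and 644 with block and robust estimation off, the last 2 chosen after seeing the data. Leaving out 1 sample gave 1 to 8 genes (8 without control replicate 3, 2 without cholesterol replicate 3), and leaving out a pair under the block gave 296 to 821 (726 without pair 3). Members called were 0 with condition alone and with the block, 1 (Stard4) with block and DESeq2, with block and no filter and with block and robust estimation off, and 0 to 2 under the block without a pair. Each fit without a pair left 1 residual degree of freedom. Without pair 1, Stard4 (adjusted p = 0.0175) passed, and so did Osbpl5 (0.0488), which entered that fit only through its higher counts in the controls, so that its call supports nothing. Without pair 3 Stard4 passed, and without pair 2 no member passed. Beyond these, the block changed no call of a member. The members' median log2 fold change ranged from -0.114 to 0.0168 without 1 sample, and that of Gramd1b from -0.822 to -0.0193. Small, uncalled log2 fold changes changed sign. That of Osbp was 0.0261 and 0.0275 in limma with pseudocounts 1 and 0.1, and 0.0537 under the block without pair 2, where Osbpl9 was at -0.0263 and Stard3 at 0.00712. Without 1 sample, Osbp ranged from -0.0445 to 0.037 (above 0 without control replicate 2 and, at 0.0168 and 0.0111, without cholesterol replicates 1 and 2). Osbpl9 ranged from -0.1 to 0.149 (below 0 without cholesterol replicate 3 and, at -0.048 and -0.0576, without control replicates 1 and 2). Stard3 ranged from -0.174 to 0.0236 (above 0 without control replicate 3), Osbpl11 from -0.14 to 0.0171 (without cholesterol replicate 1), Osbpl2 from -0.0512 to 0.196 and Osbpl8 from -0.0035 to 0.15 (both below 0 without cholesterol replicate 3). The cause of these changes was not tested. With a filter of at least 10 counts in every sample, Gramd1b was not tested and has no value. With 3 to 4 counts in each cholesterol sample, Osbpl5 was near the limit of depth.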
